A study of Mus musculus with 6 samples.

Results

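The G1 cyclins, their kinases and the inhibitors of those kinases were examined in LSK cells (lineage-negative, Sca-1+, c-Kit+ bone marrow cells, the sorted population that holds hematopoietic stem and early progenitor cells) of irradiated mice. The 10 genes, out of 55487 in the deposited table, were taken by name: the D-type cyclins Ccnd1, Ccnd2 and Ccnd3, the E-type cyclins Ccne1 and Ccne2, the kinases Cdk2 and Cdk6, the CIP/KIP inhibitor Cdkn1b, and the INK4 inhibitors Cdkn2c and Cdkn2d. There were 3 libraries from wild-type littermates (Tespa1+/+) and 3 from Tespa1 knock-out mice (Tespa1-/-). Per the methods of the study, the knock-out line B6.129S-Tespa1tm1Smoc was backcrossed to C57BL/6, mice were males of 8 to 10 weeks, and LSKs were collected 13 days after a sublethal total body dose of 5 Gy. No unirradiated sample was analysed here, so every value is of cells after irradiation, and the sources used here do not give whether a library came from 1 mouse or from a pool. The p-values therefore measure the spread between libraries, which may be technical.

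In G1, growth signals raise the D-type cyclins, which bind and activate CDK4 or CDK6. These complexes phosphorylate the RB family of proteins, which frees E2F transcription factors to switch on genes for S phase, among them the E-type cyclins that activate CDK2. INK4 proteins block CDK4 and CDK6, and CIP/KIP proteins such as p27, the product of Cdkn1b, block CDK2 complexes. Most hematopoietic stem cells rest outside the cycle, and the abundance of CDK6 and of these inhibitors is known to bear on how readily they leave that state.

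The total count per library was between 12856630 and 30576981, and every one of the 10 genes had at least 174 counts in every library (the lowest being Cdkn2c). Tespa1 itself, the targeted gene, was lower in Tespa1-/- LSKs but still counted (34.4 ± 1.62 against 14.6 ± 0.635 CPM, SD, n = 3 each, where CPM is the count relative to the scaled total of its library). Of the 2 gate markers, Kit (c-Kit) was lower in Tespa1-/- libraries (333 ± 9.79 against 170 ± 6.13 CPM, n = 3 and SD for both, edgeR adjusted p 2.10e-06, log2 fold change -0.97), while Ly6a (Sca-1) was between 43.4 and 63.8 CPM in Tespa1+/+ and between 38.2 and 44.2 CPM in Tespa1-/- libraries and did not pass (-0.32, edgeR adjusted p 0.109). In the fit with a length correction, described below, both were lower, Kit by a log2 fold change of -0.48 and Ly6a by -0.56 (edgeR adjusted p 0.0159). Marker genes of several blood cell types also differed in level. At an edgeR adjusted p of 0.05, all 6 of 6 neutrophil genes were higher in Tespa1-/- libraries. Their summed level was 28.8 to 30.6 CPM in Tespa1+/+ and 410.1 to 421.9 CPM in Tespa1-/- libraries. Higher too were 4 of 4 primary granule genes (10580 to 11330 against 17100 to 17980 CPM). Of 8 stem cell markers 6 were lower (79.6 to 89.4 against 32 to 34.9 CPM). Over all genes tested, 31.5% were higher and 31.8% lower. With the length correction these 3 counts were the same, beside 36.3% and 22.2% of all genes. The summed levels of the other lists were 23.3 to 24.3 against 44.4 to 48.7 CPM for 7 erythroid genes, 69.4 to 77.8 against 58.9 to 61.7 CPM for 4 megakaryocyte genes, 296.7 to 316 against 273.7 to 309.2 CPM for 4 monocyte genes, 31.4 to 35.3 against 31.9 to 33.4 CPM for 4 B cell genes and 2.38 to 2.56 against 1.17 to 1.45 CPM for 4 T cell genes. The B cell marker Ms4a1, the T cell marker Cd3e and the platelet gene Ppbp were at 0 counts in all 3 Tespa1-/- libraries and at 0 to 3, 4 to 8 and 3 to 5 counts in Tespa1+/+ libraries. Cd3d and Cd3g had 0 to 5 counts over all 6 libraries and were not tested. The 1 T cell gene tested, Cd8a, was lower in Tespa1-/- libraries (-0.96, edgeR adjusted p 0.00441, and -0.88 with the length correction). The B cell list was not uniform: 2 of 3 tested genes were lower, but Cd79b was higher in Tespa1-/- libraries (0.27, edgeR adjusted p 0.00919). The erythroid list was not uniform either: 4 of 5 tested genes were higher, but Klf1 was lower (-0.98, edgeR adjusted p 1.62e-04). With the length correction 3 were higher and Klf1 was at -1.17. In the monocyte list Cd14 was higher (0.68, edgeR adjusted p 6.63e-05), Csf1r was lower (-0.65, edgeR adjusted p 2.25e-05) and 2 genes did not pass. With the length correction 2 monocyte genes were higher and 1 was lower. The neutrophil genes Ltf and Camp were each at 0 in 1 Tespa1+/+ library. The part of these shifts in the results that follow was not tested, and in bulk samples fewer cells of a type and less RNA per cell cannot be told apart.

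The promoters of 7 of the 10 genes were found in the RefSeq promoter table (GRCm38.p6, windows that run from before each transcription start to just after it) and were searched on both strands for letters of factors that act on this pathway: E2F sites (TTTCCCGC, TTTGGCGC, TTTCGCGC or TTTGCCGC), the E-box CACGTG that MYC and related factors bind, and the FOXO site GTAAACA. The share of all 32851 promoters in the table with a match was 2.26% for E2F, 7.15% for the E-box and 3.65% for FOXO. A total of 4 matches were found in the 7 genes, each in a different gene and none overlapping another, in Ccnd3 and Cdkn2c in only 1 of 2 listed windows. They are shown as stretches of 30 bases read 5′ to 3′ along the strand of the gene, with the matching letters in capitals, since they are the only places in these windows where the letters occur. Position 1 is the first transcribed base at the RefSeq start of that window, and negative positions lie before it. In the GENCODE M21 annotation, used for the gene coordinates below, Cdk6 begins before its RefSeq start, at 3341485. The Cdk6 stretch therefore lies inside the gene in that annotation, as does the Cdkn2c stretch.
Cdk2 (chr10:128705173-128705202, minus strand, E2F match at -140 to -133): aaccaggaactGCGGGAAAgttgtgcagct
Cdk6 (chr5:3343661-3343690, plus strand, E-box at -220 to -215): gttctgcggcccCACGTGggtgaacccccg
Ccnd3 (chr17:47504801-47504830, plus strand, FOXO match at -243 to -237): ggtctacTGTTTACttcctgggcagcgttc
Cdkn2c (chr4:109665323-109665352, minus strand, E-box at 35 to 40): ttttgctgaataatCACGTGtgaatcgagg
Ccne1, the member with the largest rise below, held none of these letters in its window. The 206 bases of it that lie before any annotated exon are given for that reason and hold no capitals.
Ccne1 (chr7:38107535-38107740, minus strand, -250 to -45): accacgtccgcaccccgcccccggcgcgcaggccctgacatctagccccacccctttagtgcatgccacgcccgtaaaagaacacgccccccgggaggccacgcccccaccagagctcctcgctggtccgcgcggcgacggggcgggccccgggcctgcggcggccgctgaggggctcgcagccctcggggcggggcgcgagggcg
A match is a description of letters, and its absence says only that these letters are not in the window.

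To ask whether the G1 machinery differed between Tespa1+/+ and Tespa1-/- LSKs, each gene was compared with edgeR's quasi-likelihood test, adjusted over the 15332 genes tested. The E-type cyclins Ccne1 and Ccne2 rose in Tespa1-/- LSKs. The D-type cyclins Ccnd1 and Ccnd2, the kinase Cdk6 and the inhibitor Cdkn1b fell. Ccnd3, Cdk2, Cdkn2c and Cdkn2d did not pass. All 10 genes passed the filter on low counts. At an adjusted p of 0.05, 2 of 10 were thus higher, against 31.5% of all genes tested, and 4 of 10 were lower, against 31.8%. With a fold over 1.5 as well, 1 was higher (Ccne1), against 14.0% of all genes, and 3 were lower (Ccnd1, Cdk6 and Cdkn1b), against 19.2%. The groups did not overlap for 7 of the 10, against 69.1% of all genes tested. As a set, the shares therefore lay near those of the whole transcriptome, and the median log2 fold change was -0.11 against -3.44e-04 over all genes tested. What follows describes the genes singly.

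**Figure D1:**
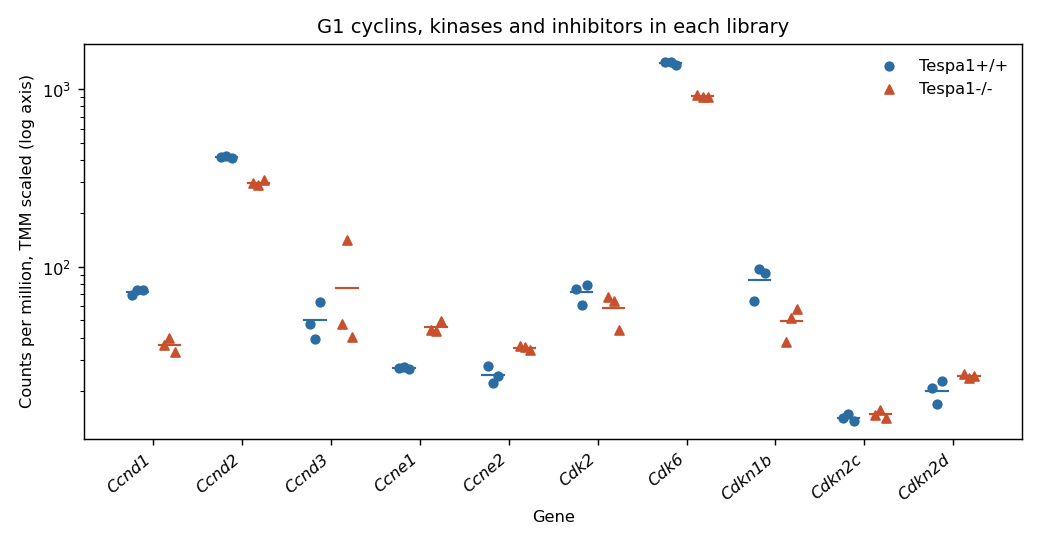
Level of each of the 10 genes in CPM (TMM scaled, log axis), 1 point per library and a line at the mean of each group of 3. Cdk6 had group means of 1407 CPM in Tespa1+/+ and 910.8 CPM in Tespa1-/- libraries, and in Ccnd3 a single Tespa1-/- library, at 141.6 CPM, lay above the other 5.

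A trend with gene length bears on this comparison. Among genes with a mean log2 CPM above 3, split into 10 equal bins of union exon length (all annotated exonic bases of a gene), the median log2 fold change went from 0.64 in the shortest bin (median 684 bases) to -0.55 in the longest (12376 bases). The 10 genes span this range, from Cdkn2d (1574 bases) to Cdk6 (13989 bases). A fit in which the trend was removed from each library, called the length correction here, is therefore given beside the results for the 10 genes and for most other genes named. In that fit the median log2 fold change of all genes was 0.11, so a value near 0.11 is level with the typical gene. Under it 3 of the 10 genes were higher, against 36.3% of all genes, and 2 were lower, against 22.2%. Ccne1, Ccne2, Ccnd1 and Cdkn1b kept their call. Ccnd2 no longer passed, and Cdk6 turned to a small positive value that passed but lay under the median of all genes. Whether the trend arose in the cells or in the preparation of the libraries was not tested.

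**Figure D2:**
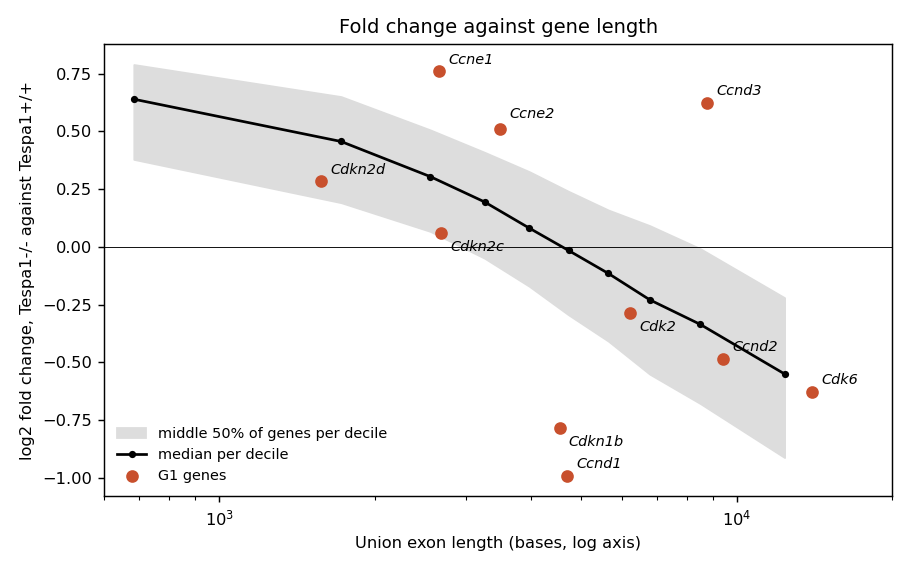
Log2 fold change against union exon length (log axis), with the median (line) and the middle 50% (band) of genes in each length decile and the 10 G1 genes as points. Ccne1, Ccne2 and Ccnd3 lay above the band and Ccnd1 and Cdkn1b below it, whereas Ccnd2 lay inside it and Cdkn2c at its lower edge. Cdk6 (13989 bases) lay to the right of the band, which ends at 12376 bases. Its log2 fold change of -0.63 was within the middle 50% of the longest decile (-0.91 to -0.22).

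Among the D-type cyclins, which link growth signals to CDK4 and CDK6, Ccnd1 showed the largest fall. Ccnd1 (ENSMUSG00000070348, GRCm38 chromosome 7, 144929931 to 144939925, minus strand) was at 69.3, 74.4 and 74.1 CPM in the Tespa1+/+ libraries and at 36.4, 39.95 and 33.2 CPM in the Tespa1-/- libraries. All 3 Tespa1-/- values lay far below the lowest Tespa1+/+ value. The log2 fold change was -0.99 (SE 0.07, edgeR adjusted p 2.68e-05), a 1.99-fold fall, and it was -0.81 (SE 0.07) with the length correction (edgeR adjusted p 9.72e-05). Of the union exon bases of Ccnd1, 23.4% overlap exons of LTO1 on the opposite strand, and whether counting used the strand is not given in the sources used here. LTO1 was far less counted, at 6.75 to 10.2 CPM over all 6 libraries.

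Ccnd2 (ENSMUSG00000000184, chromosome 6, 127125162 to 127152193, minus strand) was the most abundant D-type cyclin in counts. It stood at 413, 422 and 413 CPM in Tespa1+/+ and at 295, 289 and 309 CPM in Tespa1-/- libraries, with narrow groups that did not overlap. Its log2 fold change was -0.48 (SE 0.03, edgeR adjusted p 1.57e-05). With the length correction it was 0.03 (SE 0.03, edgeR adjusted p 0.406), so the call of Ccnd2 depended on whether the trend with length was removed.

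Ccnd3 (ENSMUSG00000034165, chromosome 17, 47505051 to 47599691, plus strand) varied most within groups. Its values were 47.4, 39.2 and 63.1 CPM in Tespa1+/+ and 47.5, 142 and 40.4 CPM in Tespa1-/- libraries. Replicate 2 of Tespa1-/- was thus 3.51 times the lowest library of its group and the remaining 5 libraries overlapped. Among 10821 genes with a mean count of at least 100, only 0.656% had so wide a range within Tespa1-/- libraries. The log2 fold change of 0.62 (SE 0.47, 95% confidence interval -0.48 to 1.73) did not pass (edgeR adjusted p 0.281), nor did 1.11 with the length correction (edgeR adjusted p 0.0808). Without that library it was -0.17 (edgeR adjusted p 0.508). The library did not stand apart in general: 19 of the 10821 genes were more than 2-fold above both other Tespa1-/- libraries in it, against 20 in replicate 1 and 21 in replicate 3. Bysl, whose exons overlap Ccnd3 on the opposite strand, was at 85.4, 86.0 and 85.8 CPM in the same 3 libraries, and the processed pseudogene Ccnd3-ps had 35, 27 and 23 counts.

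E-type cyclins activate CDK2 at the entry into S phase, and both rose. Ccne1 (ENSMUSG00000002068, chromosome 7, 38097984 to 38107534, minus strand) was at 27.0, 27.4 and 26.7 CPM in Tespa1+/+ and at 44.4, 43.5 and 49.8 CPM in Tespa1-/- libraries. The groups were well apart, and the Tespa1+/+ libraries differed from each other by 1.03-fold at most. Its log2 fold change was 0.76 (SE 0.07, edgeR adjusted p 5.37e-05), a 1.69-fold rise, and 0.71 (SE 0.07) with the length correction (edgeR adjusted p 1.05e-04). Ccne1 has no exon overlap with another annotated gene.

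Ccne2 (ENSMUSG00000028212, chromosome 4, 11191351 to 11204779, plus strand) was at 27.6, 22.1 and 24.2 CPM in Tespa1+/+ and at 35.9, 35.2 and 34.1 CPM in Tespa1-/- libraries. The lowest Tespa1-/- value lay above the highest Tespa1+/+ value, and the spread was wider in Tespa1+/+ LSKs (coefficient of variation 11.3% against 2.53%). The log2 fold change was 0.51 (SE 0.09, edgeR adjusted p 0.00171) and 0.57 (SE 0.09) with the length correction (edgeR adjusted p 0.00123). Of its exon bases 17.4% overlap exons of Ints8 on the opposite strand, and Ints8 was at 47.8 to 48.6 CPM in Tespa1+/+ and 45.9 to 48.4 CPM in Tespa1-/- libraries (log2 fold change -0.02, or 0.39 with the length correction).

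Cdk6 (ENSMUSG00000040274, chromosome 5, 3341485 to 3531008, plus strand), a kinase partner of the D-type cyclins, had the most counts of the 10 genes. It stood at 1425, 1420 and 1376 CPM in Tespa1+/+ and at 923, 901 and 909 CPM in Tespa1-/- libraries. Within each group the libraries agreed within a few percent (coefficients of variation 1.90% and 1.21%), and the groups were clearly apart. The log2 fold change was -0.63 (SE 0.02, edgeR adjusted p 1.71e-06), a 1.54-fold fall. With the length correction it was 0.06 (SE 0.02, edgeR adjusted p 0.0442), past the threshold in the opposite direction but under the 0.11 of the median gene, so for Cdk6, the longest of the 10 genes, no direction held under both fits.

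Cdk2 (ENSMUSG00000025358, chromosome 10, 128697939 to 128705031, minus strand), the partner of the E-type cyclins, did not pass. Its values were 75.4, 61.1 and 79.5 CPM in Tespa1+/+ and 68.1, 63.9 and 44.2 CPM in Tespa1-/- libraries, with replicate 3 of Tespa1-/- below the other 5 and the rest overlapping. The log2 fold change was -0.29 (SE 0.17, 95% confidence interval -0.69 to 0.11, edgeR adjusted p 0.176), and 0.03 with the length correction (edgeR adjusted p 0.884).

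**Figure D3:**
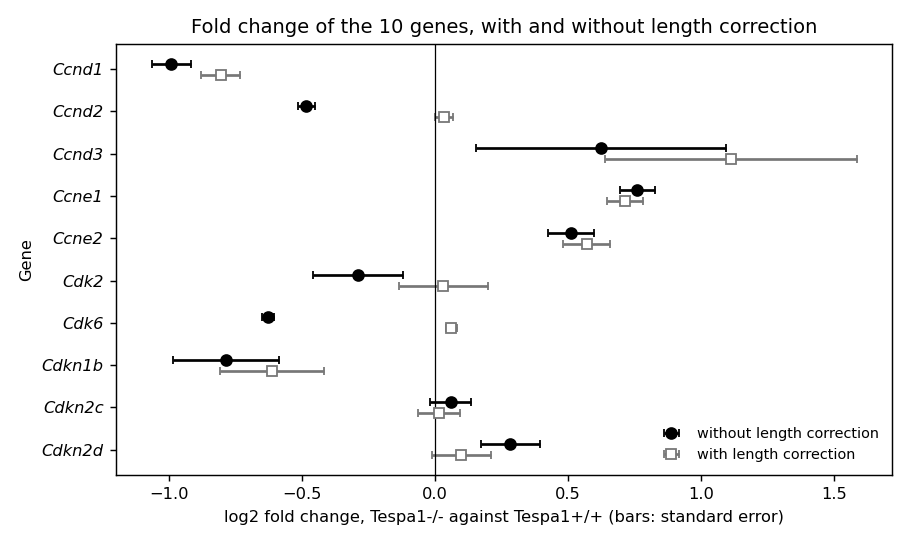
Log2 fold change of each gene in Tespa1-/- against Tespa1+/+ LSKs with its standard error, without (filled) and with (open) the length correction. Ccne1, Ccne2, Ccnd1 and Cdkn1b moved little between the fits, whereas Ccnd2 and Cdk6 went from -0.48 and -0.63 to 0.03 and 0.06.

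Of the inhibitors, only Cdkn1b passed. Cdkn1b (ENSMUSG00000003031, chromosome 6, 134920401 to 134925513, plus strand), the gene of p27, was at 64.0, 96.7 and 92.9 CPM in Tespa1+/+ and at 37.9, 51.7 and 58.2 CPM in Tespa1-/- libraries. The groups did not overlap, but both were wide: the highest library was 1.51 times the lowest in Tespa1+/+ and 1.54 times in Tespa1-/- LSKs, and only 4.35% and 5.64% of genes with a mean count of at least 100 had as wide a range. The log2 fold change was -0.78 (SE 0.20, edgeR adjusted p 0.0109), a 1.72-fold fall, and -0.61 (SE 0.20) with the length correction (edgeR adjusted p 0.0305). It stayed past the threshold when any library was left out, with the highest edgeR adjusted p at 0.0416 without replicate 2 of Tespa1+/+.

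The INK4 inhibitors of CDK4 and CDK6 showed no change that passed. Cdkn2c (ENSMUSG00000028551, chromosome 4, 109660876 to 109667189, minus strand), the gene of p18, was at 14.1, 14.9 and 13.6 CPM in Tespa1+/+ and at 14.7, 15.6 and 14.0 CPM in Tespa1-/- libraries. The groups overlapped closely. Its log2 fold change was 0.06 (SE 0.08, edgeR adjusted p 0.589), or 0.02 with the length correction (edgeR adjusted p 0.971), and its 95% confidence interval of -0.13 to 0.24 lay within 1.5-fold in both directions. Cdkn2d (ENSMUSG00000096472, chromosome 9, 21288410 to 21291407, minus strand), the gene of p19, was at 20.8, 16.8 and 22.7 CPM in Tespa1+/+ and at 24.8, 23.8 and 24.4 CPM in Tespa1-/- libraries. Each Tespa1-/- value was above each Tespa1+/+ value, but the log2 fold change of 0.28 (SE 0.11) missed the threshold (edgeR adjusted p 0.0590). It was past the threshold without replicate 3 of Tespa1+/+ (0.39, edgeR adjusted p 0.0191), and with the length correction it was 0.10 (edgeR adjusted p 0.472). The remaining INK4 genes were not expressed at a level that could be tested. Cdkn2a had 0 counts in all 6 libraries, which allows up to 3 counts in each (0.242 CPM in the smallest library). Cdkn2b had 1 count in 1 library.

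Levels were next compared between genes, which needs a value per length. In the deposited FPKM (counts scaled to library depth and per kilobase of gene), Cdk6 was highest of the 10 in both groups (84.9 ± 1.65 in Tespa1+/+ and 51.3 ± 0.550 in Tespa1-/-, SD, n = 3), followed by Ccnd2 (34.8 ± 0.391 and 23.2 ± 0.787). Cdk4, the other kinase of the D-type cyclins and not among the 10, was at 47.8 ± 3.86 and 51.3 ± 1.90 FPKM, between those genes in Tespa1+/+ and level with Cdk6 in Tespa1-/- LSKs, where Cdk6 was higher in 1 of 3 libraries. In Tespa1+/+ LSKs the order went on with Ccnd1 (13.4), Cdkn1b (11.5), Ccne1 (7.44), Cdk2 (6.24), Cdkn2d (6.15), Cdkn2c (5.18), Ccne2 (3.27) and Ccnd3 (3.17 FPKM). The ranges of Ccnd1 and Cdkn1b, of Cdk2 and Cdkn2d, of Cdkn2d and Cdkn2c, and of Ccne2 and Ccnd3 overlapped. Within libraries, Ccnd1 was above Cdkn1b in all 3, whereas each of the other pairs kept its order in only 2 of 3 and was not separated. In Tespa1-/- LSKs Ccne1 (11.8 FPKM) stood next after Ccnd2, ahead of Cdkn2d (6.94), Ccnd1 (6.28) and Cdkn1b (6.27), with Cdkn2c (5.04), Cdk2 (4.75), Ccnd3 (4.54) and Ccne2 (4.34) last. Neighbours from Cdkn2d down overlapped there.

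The order of these levels depended on the length assigned to a gene. The deposited FPKM imply a length of 16274 bases for Ccnd3 and 11932 bases for Cdk2, which is 7.70 and 5.33 times the length of their longest principal transcript in GENCODE M21 (2113 and 2240 bases). For Cdkn2c the same ratio was 1.14. With counts divided by the principal transcript, Cdk4 (149 ± 12.0 FPKM) was above Cdk6 (126 ± 2.46) in every Tespa1+/+ library, Cdk2 (33.2 ± 4.49) came next after Ccnd2 (67.9 ± 0.763) though its range overlapped that of Ccnd3, and Ccnd3 (24.4 ± 5.95) was no longer last but beside Ccnd1 (20.1 ± 0.771, SD, n = 3 each).

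The make-up of each pair or trio of related genes was then compared as shares of their summed FPKM, which do not depend on how libraries are scaled to each other. With 3 libraries against 3, the exact permutation test over libraries (two-sided) cannot go below 0.1. Among D-type cyclins, Ccnd1 held 25.4%, 26.6% and 26.2% in the Tespa1+/+ libraries but 19.5%, 18.2% and 17.7% in Tespa1-/- libraries, a difference of -7.59 percentage points with no overlap (exact permutation p 0.1, the smallest possible). Ccnd2 held most of the trio in every library, 67.8% ± 1.42 in Tespa1+/+ and 68.7% ± 8.04 in Tespa1-/- LSKs (SD, n = 3 each, exact permutation p 1). The wide spread of the latter came with replicate 2, in which Ccnd3 held 22.2% against 8.77% and 7.44% in the other Tespa1-/- libraries. Per principal transcript, Ccnd3 held 54.4% of the trio in that library and 17.7% to 26.0% in Tespa1+/+ libraries.

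Between the kinases of the D-type cyclins, Cdk6 held 64.2%, 66.2% and 61.7% of the summed FPKM of Cdk4 and Cdk6 in Tespa1+/+ libraries but 51.4%, 49.1% and 49.6% in Tespa1-/- libraries. The difference was -14.0 percentage points with no overlap (exact permutation p 0.1), and -13.6 per principal transcript. Cdk4 itself rose slightly, with 295 ± 23.7 CPM in Tespa1+/+ and 340 ± 12.1 CPM in Tespa1-/- LSKs (n = 3 and SD for both). Its log2 fold change was 0.20 (SE 0.06, edgeR adjusted p 0.0207), a call that was lost without replicate 2 (edgeR adjusted p 0.0542) or replicate 3 (0.0516) of Tespa1-/- and with library totals alone (0.179). It was also lost in all 3 limma-trend fits of the FPKM, the values behind the share (log2 fold change 0.10, limma adjusted p 0.199 to 0.295). The FPKM are scaled to library totals without TMM factors, so these fits share that scaling with library totals alone and are not separate from it. Since Cdk6 has 13989 and Cdk4 3249 union exon bases, the share moves with the length trend: with the length correction the log2 fold changes were 0.06 for Cdk6 and 0.23 for Cdk4. Of the exon bases of Cdk4 19.7% overlap Tspan31 on the opposite strand, which was at 62.1 to 65.4 CPM in Tespa1+/+ and 79.5 to 81.4 CPM in Tespa1-/- libraries. Shares of Ccne1 among E-type cyclins (69.5% ± 2.53 against 73.0% ± 1.86, exact permutation p 0.3) and of Cdkn2c among the INK4 pair (46.0% ± 4.93 against 42.1% ± 1.59, exact permutation p 0.2, SD, n = 3 each) overlapped between the groups.

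**Figure D4:**
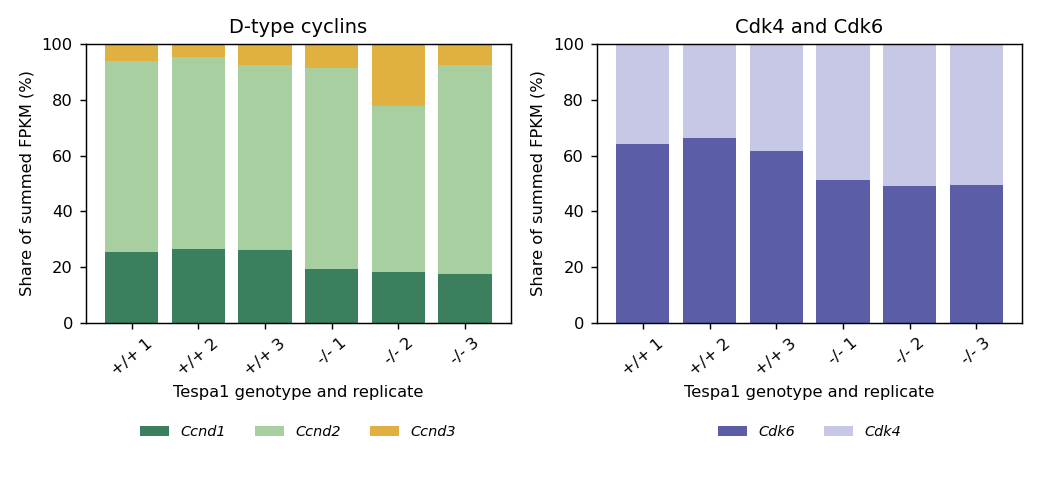
Share of the summed FPKM held by each D-type cyclin (left) and by Cdk6 and Cdk4 (right) in each library. Ccnd1 held less of the D-type cyclins in all 3 Tespa1-/- libraries (17.7% to 19.5%) than in Tespa1+/+ libraries, and Cdk6 less of the kinase pair (49.1% to 51.4%), while Ccnd3 held 22.2% in replicate 2 of Tespa1-/- and 8.77% in replicate 1, both above the Tespa1+/+ libraries.

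Of 36 further genes of the G1/S pathway, 32 passed the filter, and 8 of these were higher and 12 lower at an edgeR adjusted p of 0.05, beside 31.5% and 31.8% of all genes tested. Their log2 fold changes had a median of -0.04. With the length correction 11 were higher and 5 lower, beside 36.3% and 22.2%. As a set these genes are thus near the background, and the counts by role are a description. All 3 members of the RB family, which hold E2F factors in check, fell: Rb1 (log2 fold change -0.38), Rbl1 (-0.48) and Rbl2 (-0.51). With the length correction only Rbl1 was still lower (-0.17, edgeR adjusted p 0.0122), and Rb1 (-0.07) and Rbl2 (-0.09) did not pass. Of 10 E2F and DP factors, 5 fell and 1 rose. The largest fall was that of Tfdp2, a DP partner of E2F proteins (-1.08, SE 0.27, edgeR adjusted p 0.00933, and -0.39 with an edgeR adjusted p of 0.239 with the length correction), and the rise was that of E2f4, a repressive E2F (0.15, edgeR adjusted p 0.00963), which did not pass with the length correction (0.08). In that fit 2 of the 10 were lower, E2f3 (-0.39, edgeR adjusted p 0.00132, and -0.64 without the correction) and E2f5 (-0.46, edgeR adjusted p 0.0174), which had not passed without it (-0.30). E2f1 was at 81.3 to 86.1 CPM in Tespa1+/+ and 82.5 to 82.9 CPM in Tespa1-/- libraries.

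Among genes of cyclin and inhibitor turnover, 2 of 6 tested rose and 3 fell. With the length correction 3 were higher and 2 lower. Cks1b, a cofactor of the SCF ligase that marks p27 for degradation, stood at 100.1 ± 2.62 CPM in Tespa1+/+ and 175 ± 1.93 CPM in Tespa1-/- LSKs (n = 3 and SD for both). It rose by 0.81 on the log2 scale (SE 0.03, edgeR adjusted p 2.58e-06), and by 0.55 with the length correction. Rnf123, a subunit of another ligase of p27, fell (-0.66, edgeR adjusted p 7.46e-06, and -0.30 with the length correction). Skp2, the SCF subunit that recognises p27, had 1 to 5 counts per library and was not tested. Of 4 genes that activate CDKs 2 rose, led by Cdk7, the kinase of the CDK-activating complex (0.42, edgeR adjusted p 6.93e-04, and 0.50 with the length correction), and none fell. With the length correction 3 of the 4 were higher. Of 5 genes of the MuvB core, which represses or activates cell cycle genes with different partners, 2 rose, led by Lin37 (0.57, edgeR adjusted p 6.09e-04, and 0.35 with the length correction). Only 1 fell, Lin9 (-0.31, edgeR adjusted p 0.00856), which turned to 0.08 with the length correction and did not pass (edgeR adjusted p 0.392). In that fit 3 of the 5 were higher, led by Rbbp4 (0.67, edgeR adjusted p 8.70e-06, and 0.19 without the correction), and none was lower. The other CIP/KIP genes did not pass: Cdkn1a, the p53 target gene of p21, was at 62.9, 62.1 and 100.4 CPM in Tespa1+/+ and at 75.5, 69.2 and 30 CPM in Tespa1-/- libraries, and Cdkn1c, the gene of p57, was at 1.16 to 1.96 and 1.21 to 1.38 CPM. Ccna2, the A-type cyclin of S phase, did not pass (0.06, 95% confidence interval -0.03 to 0.16) but did with the length correction (0.19, edgeR adjusted p 0.00568), and Ccna1 had 2 counts in 1 library and was not tested.

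**Figure D5:**
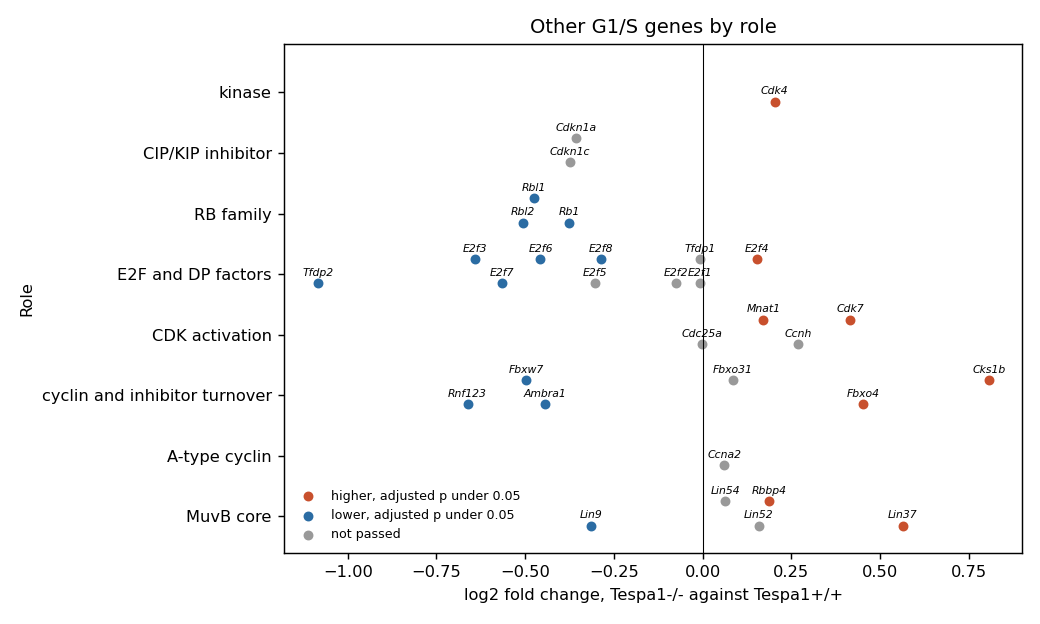
Log2 fold change of the 32 tested genes among 36 further G1/S genes, grouped by role, with genes higher or lower at an edgeR adjusted p of 0.05 in colour. All 3 RB family genes lay below 0 without the length correction, E2F and DP factors ran from -1.08 (Tfdp2) to 0.15 (E2f4), and Cks1b was the highest at 0.81.

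Genes of the phases after G1 moved in both directions. Of 14 S phase genes 7 were higher and 4 lower (median log2 fold change 0.05), from Mcm3, a subunit of the replicative helicase (-0.23, or -0.14 with the length correction), to Cdc45, which joins that helicase at origins (0.61, or 0.68). Of 12 mitosis genes 7 were higher and 3 lower (median 0.35), from the proliferation marker Mki67 (-0.72, but -0.18 with the length correction) to the mitotic kinase gene Plk1 (0.66, or 0.56). The shares over all genes tested were 31.5% higher and 31.8% lower. With the length correction 11 S phase genes were higher and 2 lower, and 8 mitosis genes were higher and 1 lower (36.3% and 22.2% over all genes), with medians of 0.21 and 0.30 beside 0.11 over all genes in that fit.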

How the data were processed

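RNA-seq of 6 LSK libraries was analysed from 1 table that the authors deposited, with a raw count and an FPKM value per gene and library. Per the labels, poly-A RNA was made into stranded paired-end libraries, and the submitters' processing notes name CASAVA 1.8, HISAT2, StringTie and edgeR and the build GRCm38. Of 55487 genes, 54907 had the coordinates of GENCODE M21, which gave exon overlaps and lengths. From the deposited counts, genes passing filterByExpr were compared by the quasi-likelihood test of edgeR 4.0.16, with TMM scaling and Benjamini-Hochberg adjustment over 15332 genes (threshold 0.05). CPM are on that scale. The deposited FPKM were used for levels between genes, for shares and in alternatives with limma 3.58.1. DESeq2 1.42.0 was another alternative. The length correction fits each library's deviation in log2 CPM on log2 union exon length (loess, span 0.5) as an offset.

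Groups and replicate numbers came from the sample titles. The members, the lists and the length correction were chosen with earlier results of these data known. Named by rule were all 10 members, Tespa1, Cdk4, the largest rise and fall of each role or list, and markers at 0. Genes whose exons overlap these and the other named genes of small roles were named after their values were seen. So were Kit, Ly6a, Cd3d, Cd3g, Cd8a, Cd79b, Klf1, Cd14, Csf1r, E2f1, E2f3, E2f5, Rbbp4 and Skp2. Shares per principal transcript were added after the files were seen. The scripts were tested on simulated counts. No pair of libraries agreed within sampling noise.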

Additional observations from a re-analysis of the deposited data

How the results depend on the processing

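Of 204 values of single genes under alternatives (the 10 genes, Cdk4 and Tespa1), 184 stayed the same in sign and in whether they passed. Ccnd1, Ccne1, Ccne2, Cdkn1b and Tespa1 did so in every setting. Log2 fold changes turned with the length correction for Ccnd2 (0.0341), Cdk2 (0.0325) and Cdk6 (0.0622), and likewise with the replicate block and length correction together (0.0337, 0.0191 and 0.0623). Cdkn2c was at -0.0417 with library totals alone, which shifts the median of all genes to -0.10, and under limma-trend at -0.0331 with a pseudocount of 1, with or without a filter, and -0.0389 with one of 0.1. Without single libraries Ccnd3 ran from -0.17 (without replicate 2 of Tespa1-/-) to 0.93. Cdkn2d passed without a filter (0.29, edgeR adjusted p 0.0481) and under the replicate block (0.29, 0.0497).

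Of the 10 genes, 2 were lower with the length correction, with or without the block, and 1 was higher at a fold over 1.5. Of the further G1/S genes, 4 were higher with library totals alone and under all 3 limma-trend settings and 1 at a fold over 1.5, while 5 were lower with the length correction, with or without the block, and 3 at a fold over 1.5. The share of Ccnd2 among D-type cyclins differed by 0.952 percentage points, but by -1.13 per union exon length, -7.32 per principal transcript and -3.94 without a length, and by -2.11 to 5.51 when single libraries were left out (-0.543 without replicate 1, 5.51 without replicate 2 and -2.11 without replicate 3 of Tespa1-/-). The causes were not tested.

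Replicate numbers did not pair the libraries (correlations of deviations 0.0459, 0.0107 and 0.0596). With the number as a block, 3 of the 10 genes were higher, Cdkn2d among them, and 4 were lower.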
